A study of Mus musculus with 35 samples.

Results

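Pioglitazone was compared with no treatment in perigonadal fat of yellow agouti females, which is 7 of the 35 samples of a mouse series on adiposity and insulin sensitivity. The members were taken by their titles: 3 arrays of treated Ay/+ females and 4 arrays of untreated Ay/+ females. Ay is the yellow allele of agouti, which gives yellow fur and adult-onset obesity. All mice were on the C57BL/6J strain and 22 weeks old, and the treatment was pioglitazone at 10 mg/kg per day for 2 weeks; the label of treated replicate 3 gives the drug and the 2 weeks but no dose. The groups set beside them were 4 untreated lean females, ob/ob females without (4) and with (3) the same treatment, and diet-induced obese males without (3) and with (4) it. Each sample was hybridised to 1 MG-U74Av2 oligonucleotide array, and the labels do not say whether a sample is 1 animal or a pool. P-values therefore measure the spread between samples, pooled over all 35 arrays in 10 groups.

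Pioglitazone is a thiazolidinedione, a ligand of the nuclear receptor PPAR gamma, which pairs with a retinoid X receptor on DNA and controls genes of lipid storage and fat cell identity. In fat cells the drug class is known to raise genes of lipid uptake and mitochondrial oxidation, and in rodent white fat it can raise Ucp1, the uncoupling protein of brown fat. In yellow agouti mice the agouti protein, normally made in skin, is made in all tissues and blocks melanocortin receptors in the brain, which raises food intake. As a check of the labels, the agouti transcript (a) was at 378, 726, 595 and 421 in untreated replicates 1 to 4 and at 657, 607 and 407 in treated replicates 1 to 3, against 79.5 ± 52.1 in lean females (mean ± SD, n = 4). Every array of both Ay/+ groups was above the lean mean, and the Ay/+ groups overlapped each other. Levels are scaled signals, that is the deposited signal after each array was brought to the same trimmed mean.

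A pair of arrays stood apart. Untreated replicate 1 was the only one of the 7 in the later of the series' array batches, and its mean correlation with its own group was 0.872, against 0.912 to 0.918 for the other untreated arrays. It correlated more closely with treated replicates 1 and 2 (0.919 and 0.913) than with any array of its own group. Treated replicate 3 had a high floor: its 5th percentile of signal was 23.9, against 3.14 to 6.87 on the other 6 arrays, and 4.46% of its probe sets were below 23, against 20.1 to 27.3%. Results are therefore given with both arrays and, where it matters, without them. Treated and untreated arrays shared 1 scan day, with untreated replicate 3 and treated replicate 3 on it, and 2 chip lots. The 3′ to 5′ signal ratio of Gapdh, a sign of RNA quality, was 0.741 to 1.02 in untreated and 0.768 to 0.836 in treated samples.

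Pioglitazone changed 377 of 12422 probe sets (3.03%) in Ay/+ fat at an adjusted p under 0.05, with 264 higher (2.13%) and 113 lower (0.91%). The higher calls held 241 distinct genes and the lower calls 99. The higher calls took in 13 of 32 measured genes of fatty acid oxidation, 12 of 24 of the TCA cycle and 23 of 65 of oxidative phosphorylation, and the lower calls 4 of 22 acute-phase genes. The median change of a higher call was a log2 fold change of 1.08 and that of a lower call -1.21, beside a median of 0.05 over all probe sets. Fold changes are of the signal plus a pseudocount of 23, so changes of dim genes are compressed. In 334 of the 377 the treated and untreated arrays did not overlap. Over 1 probe set per gene, treated arrays were wholly above in 6.25% of genes and wholly below in 4.0%. The calls were made on these same arrays, so non-overlap describes them and is no separate support. In a probe set without overlap, leaving out arrays cannot reverse the direction. All 264 higher and all 113 lower calls kept their direction without both doubted arrays, where 209 and 75 of them were still called, and 151 and 46 were still called without treated replicate 3 alone. The count itself was 880 without untreated replicate 1, 223 without treated replicate 3 and 717 without both. With only the compared groups in the fit it was 90. Within the shared scan day the median difference of the higher calls was 1.19 and of the lower calls -1.32, and within chip lot 3 (treated replicate 1 against untreated replicate 4) they were 1.19 and -1.15. Each is 1 array against 1 array among the 7 that made the calls, so these values describe the calls and are no separate support for them.

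**Figure D1:**
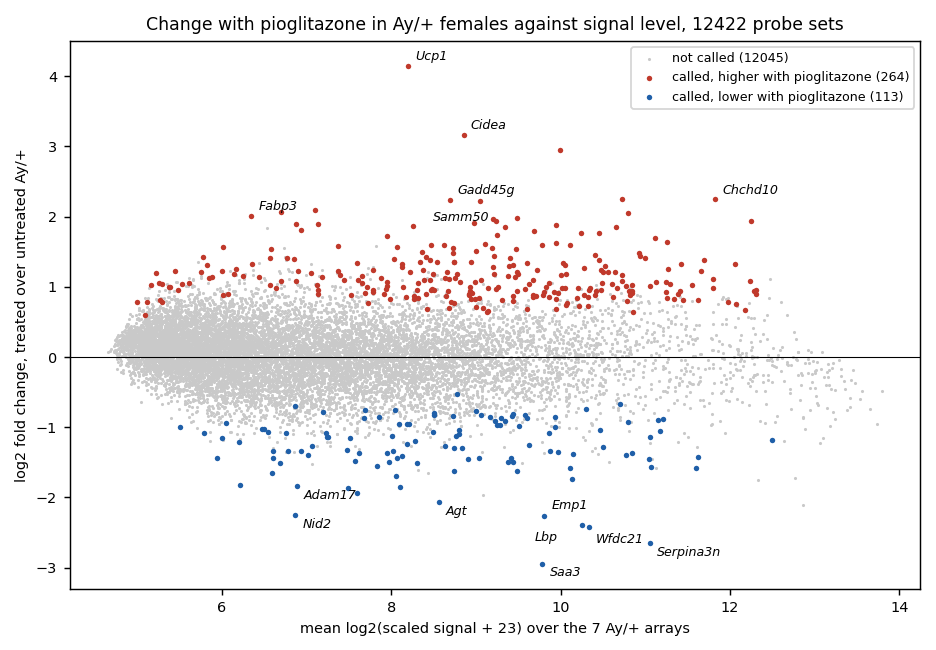
Each of 12422 probe sets by its mean log2(scaled signal + 23) over the 7 Ay/+ arrays (x axis) and its log2 fold change with pioglitazone (y axis); red and blue points are the 264 higher and 113 lower calls, grey points were not called. Of the labelled genes Ucp1 and Cidea lie highest, and Saa3 and Serpina3n lowest.

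The largest rise was that of Ucp1, the brown fat protein that lets protons leak across the inner mitochondrial membrane. Its signal was 10.1, 211, 42.7 and 81.9 in untreated replicates 1 to 4 and 434, 2265 and 3327 in treated replicates 1 to 3. The lowest treated value was above the highest untreated one, as the rule that chose the 10 highest and 10 lowest probe sets requires. Treated replicate 1 was far below replicates 2 and 3. The test gave a log2 fold change 4.15 ± 0.56 (SE), adjusted p = 9.54e-06, and without both doubted arrays 3.12 (adjusted p = 0.00163). A dimmer second Ucp1 probe set went the same way without passing the test (1.55, adjusted p = 0.0548). Because untreated replicate 1 lay below the pseudocount, the size of this fold depends on the floor. Cidea, a lipid droplet protein abundant in brown fat, was at 149, 270.2, 181 and 80.6 untreated and 558, 2129 and 3407 treated (log2 fold change 3.17 ± 0.39 (SE), adjusted p = 2.16e-06). The same treated replicate was again the lowest. In lean females Ucp1 was at 855 ± 496 and Cidea at 2045 ± 739 (n = 4 each), so both genes were lower in every untreated Ay/+ array than the lean mean.

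Of 16 thermogenic and brown fat genes measured, 5 were called higher and none lower, where 2.61% of 8251 genes, each by its brightest probe set over all arrays, were called higher and 1.13% lower. The other calls were Cox8b and Cox7a1, muscle- and brown-fat-type subunits of cytochrome oxidase (1.77 and 1.90), and Fabp3, a fatty acid carrier of heart and brown fat (2.01). Fabp3 was at 8.98, 30.1, 16.5 and 36.3 untreated and 38.3, 226 and 359 treated, and its call was lost without treated replicate 3 (adjusted p = 0.0554), as was that of Cox7a1 (0.0598). Ppargc1a, a coactivator of mitochondrial genes, and Dio2, which activates thyroid hormone, were not called (0.31 and 0.87). The summed signal of the list ran from 1431 to 2725 in untreated arrays, 4834 to 12466 in treated arrays and 4729 to 8552 in lean ones. Bright members weigh most in such a sum. The median over members, as log2 minus the lean mean, overlapped between groups. It was -0.37, -0.06 and 0.74 in treated replicates 1 to 3 and -0.70, -0.69, -0.20 and -0.53 in untreated replicates 1 to 4. The median log2 fold change of the list was 0.72, and 0.37 without both doubted arrays. In bulk tissue more cells of a type and more RNA per cell cannot be told apart.

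**Figure D2:**
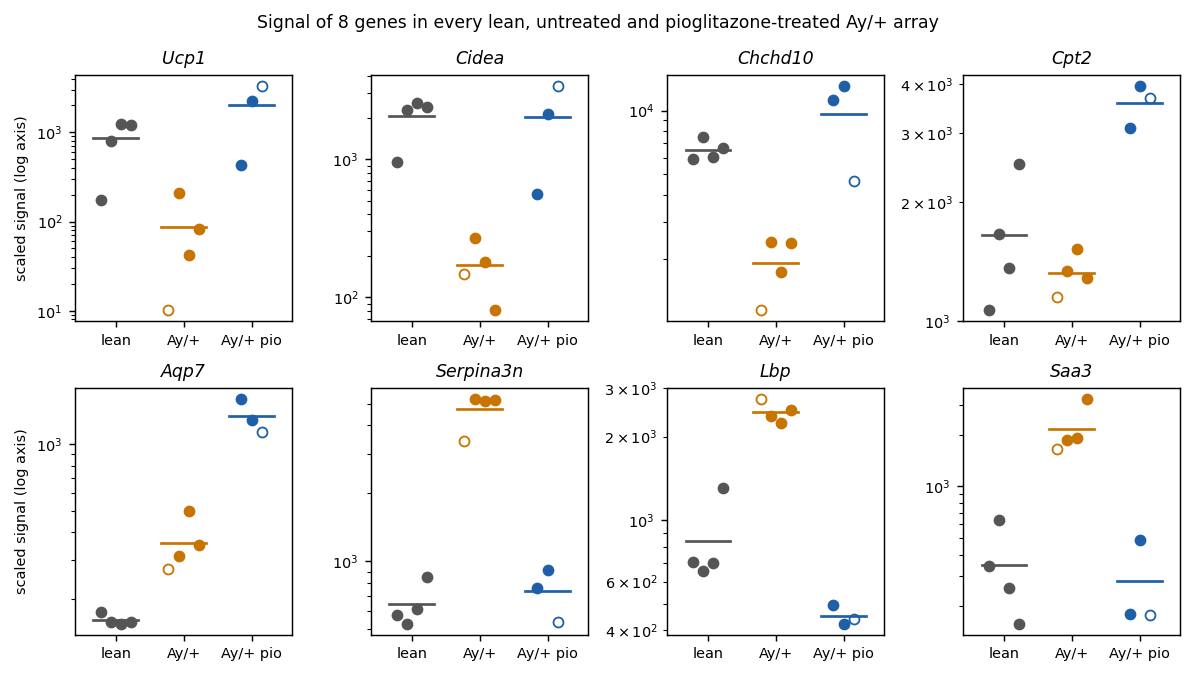
Scaled signal (log axis) of 8 genes in 4 lean, 4 untreated Ay/+ and 3 pioglitazone-treated Ay/+ females; each point is an array, horizontal lines are group means, and open points mark untreated replicate 1 and treated replicate 3. In every panel the treated arrays lie wholly above or below the untreated ones. For Ucp1, Cidea, Chchd10, Serpina3n, Lbp and Saa3 the rule that chose them requires this.

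Promoters were looked up for the highest and lowest named genes with Aqp7, Cpt2 and Pdk4, because PPAR gamma with its partner binds paired copies of the core motif AGGTCA. Of 11 higher genes with an entry 4 held the motif and 7 did not (4931406C07Rik, Gadd45g, Samm50, Nabp1, Fabp3, Pdk4 and Cpt2), and none of 6 lower genes held it. All 4 with the motif are shown, chosen for it, with Fabp3, Pdk4 and Cpt2 as higher genes without it and Saa3 as the largest fall. They are the 250 bases before the gene start from RefSeq (GRCm38.p6), 5′ to 3′ on the gene's strand, with AGGTCA or its reverse complement in capitals.
Ucp1 (chr8:83290098-83290347, + strand): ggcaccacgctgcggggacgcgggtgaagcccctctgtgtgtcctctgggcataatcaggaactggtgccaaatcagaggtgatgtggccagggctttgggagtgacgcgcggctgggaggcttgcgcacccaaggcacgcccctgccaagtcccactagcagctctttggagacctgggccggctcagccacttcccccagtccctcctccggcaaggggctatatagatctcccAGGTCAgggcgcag
Chchd10 (chr10:75932880-75933129, + strand): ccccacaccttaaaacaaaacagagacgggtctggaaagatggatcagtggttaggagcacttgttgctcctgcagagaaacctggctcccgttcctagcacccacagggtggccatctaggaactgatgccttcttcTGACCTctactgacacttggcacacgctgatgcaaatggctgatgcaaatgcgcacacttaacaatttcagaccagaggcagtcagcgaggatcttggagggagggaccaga
Adig (chr2:158502362-158502611, + strand): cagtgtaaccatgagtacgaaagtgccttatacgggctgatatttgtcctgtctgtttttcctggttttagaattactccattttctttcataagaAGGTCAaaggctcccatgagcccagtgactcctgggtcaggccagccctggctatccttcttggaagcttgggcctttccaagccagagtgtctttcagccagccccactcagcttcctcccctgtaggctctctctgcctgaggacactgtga
Aqp7 (chr4:41048137-41048386, - strand): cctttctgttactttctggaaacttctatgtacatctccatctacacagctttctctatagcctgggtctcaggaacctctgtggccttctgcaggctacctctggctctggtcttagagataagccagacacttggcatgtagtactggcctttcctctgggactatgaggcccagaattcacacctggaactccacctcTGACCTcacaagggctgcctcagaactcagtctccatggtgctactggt
Fabp3 (chr4:130308488-130308737, + strand): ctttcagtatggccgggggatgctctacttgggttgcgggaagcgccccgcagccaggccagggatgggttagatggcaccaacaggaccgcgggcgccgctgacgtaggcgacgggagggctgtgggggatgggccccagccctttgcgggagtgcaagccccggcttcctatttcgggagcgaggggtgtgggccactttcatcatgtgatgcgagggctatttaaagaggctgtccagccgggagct
Pdk4 (chr6:5496279-5496528, - strand): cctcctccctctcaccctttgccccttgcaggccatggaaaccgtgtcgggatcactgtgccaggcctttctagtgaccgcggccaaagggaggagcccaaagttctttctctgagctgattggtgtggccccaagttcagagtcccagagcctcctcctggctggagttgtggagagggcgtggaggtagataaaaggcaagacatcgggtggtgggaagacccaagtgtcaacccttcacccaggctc
Cpt2 (chr4:107923590-107923839, - strand): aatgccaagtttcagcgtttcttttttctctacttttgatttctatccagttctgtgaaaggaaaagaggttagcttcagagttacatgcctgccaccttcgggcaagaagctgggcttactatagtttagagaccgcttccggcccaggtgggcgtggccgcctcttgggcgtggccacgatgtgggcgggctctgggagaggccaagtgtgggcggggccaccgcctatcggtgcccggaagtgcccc
Saa3 (chr7:46715677-46715926, - strand): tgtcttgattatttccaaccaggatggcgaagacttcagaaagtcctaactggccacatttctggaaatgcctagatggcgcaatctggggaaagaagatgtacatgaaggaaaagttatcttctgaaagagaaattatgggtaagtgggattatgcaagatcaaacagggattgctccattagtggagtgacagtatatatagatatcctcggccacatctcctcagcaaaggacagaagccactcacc
The motif starts 14 bases before the gene start in Ucp1, 112 in Chchd10, 154 in Adig and 49 in Aqp7 (the first of its 2 entries). Across all 32851 promoter entries of that length 14.0% held AGGTCA on either strand, and across the 8412 entries of genes on the array 11.9%. Of the entries of the higher genes 14.2% (34 of 240) held it, and of the lower genes 11.7% (12 of 103). Of the entries of the PPAR gamma target list, whether called or not, 21.1% (8 of 38) held it. Promoters were found for 203 of the 241 higher and 78 of the 99 lower genes. The paired form AGGTCANAGGTCA was in 11 of the 32851 entries and in none of either called group. Cidea, Lbp, Nid2, Wfdc21 and Nrep had no entry. These shares describe letters near gene starts and say nothing of binding.

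The other highest probe sets of named genes included mitochondrial and fat cell genes. Chchd10, a protein of the mitochondrial intermembrane space, rose from 1146, 2405, 1737 and 2379 to 11263, 13098 and 4638 (log2 fold change 2.25 ± 0.34 (SE), adjusted p = 5.86e-05). Treated replicate 3 was the lowest of the treated arrays and still above every untreated one. Samm50, which inserts barrel proteins into the outer mitochondrial membrane, was at 375, 206, 257 and 195 untreated and 1118, 1431 and 1217 treated (log2 fold change 2.22 ± 0.29 (SE), adjusted p = 8.32e-06). Adig, or adipogenin, a small membrane protein of fat cells, stood at 1074, 938, 776 and 987 and 4399.6, 3498 and 4084 (log2 fold change 2.06 ± 0.34 (SE), adjusted p = 0.00021). Its arrays were far apart between groups and close within them. Gadd45g, a stress- and growth-arrest-induced protein, was at 219, 213, 167 and 166 and 1132, 1259.8 and 662 (2.24, adjusted p = 5.38e-05). The brighter of 2 named probe sets of 4931406C07Rik had the smallest p among the higher calls (log2 fold change 2.24 ± 0.21 (SE), adjusted p = 1.76e-08), and Nabp1, a single-stranded DNA-binding protein, was higher by 2.06 on the log2 scale.

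Genes of fuel oxidation made up many of the higher calls. Of 32 measured genes of fatty acid oxidation 13 were called higher and none lower, with a median log2 fold change of 0.76 over the list beside 0.04 over all 8251 genes. Cpt2, the carnitine palmitoyltransferase of the inner membrane, was at 1153, 1336, 1525 and 1288 untreated and 3095, 3956 and 3677 treated (log2 fold change 1.42 ± 0.23 (SE), adjusted p = 0.000178). The groups lay far apart with no overlap. Slc25a20, the carnitine-acylcarnitine carrier that feeds it, rose by 1.62, Etfdh, which passes electrons from acyl-CoA dehydrogenases to ubiquinone, by 1.87, and Acaa1b, a peroxisomal thiolase, by 1.47 on the log2 scale. Cpt1a, the liver-type enzyme of the outer membrane, was not called (0.17). The list had 12 higher calls without treated replicate 3 and 10 with scan day as a fixed block. Without both doubted arrays 20 members of the list were called higher and 1 lower, while the calls over all probe sets rose from 377 to 717. Of all 8251 genes 2.61% were called higher with all arrays.

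In the TCA cycle and pyruvate oxidation 12 of 24 measured genes were called higher and none lower (median 0.81), and 7 were called higher without treated replicate 3, as with scan day as a fixed block. Cs, citrate synthase, which opens the cycle, was at 1199, 843, 1102 and 1012 and 2407, 2378 and 2489.6 (log2 fold change 1.22 ± 0.24 (SE), adjusted p = 0.00187). The succinyl-CoA ligase genes Suclg1 and Sucla2 rose by 1.45 and 1.34, though a dimmer Sucla2 probe set did not (0.34), and Dlst, a subunit of oxoglutarate dehydrogenase, rose by 1.11. The 12 members not called included the cytosolic forms Idh1 and Mdh1 (0.30 and 0.12) and the mitochondrial Idh2 and Idh3b (0.12 and -0.03). Of 65 measured subunits and carriers of oxidative phosphorylation 23 were called higher and none lower, and 58 had a log2 fold change above 0. The median was 0.73, beside 0.04 over all 8251 genes, of which 2.61% were called higher. With scan day as a fixed block 10 of the 65 were called and their median was 0.55. Cycs, cytochrome c, was at 299.6, 225, 252 and 224 untreated and 629, 781 and 822 treated (log2 fold change 1.49 ± 0.22 (SE), adjusted p = 3.59e-05). Complex I supplied Ndufb9 (1.01) and complex III Uqcr11 (0.99), both with treated arrays wholly above the untreated. Over 1 probe set per gene, treated arrays were wholly above untreated ones in 6.25% of genes and wholly below in 4.0%, and the shares were 28 of 65 and 0 of 65 here.

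**Figure D3:**
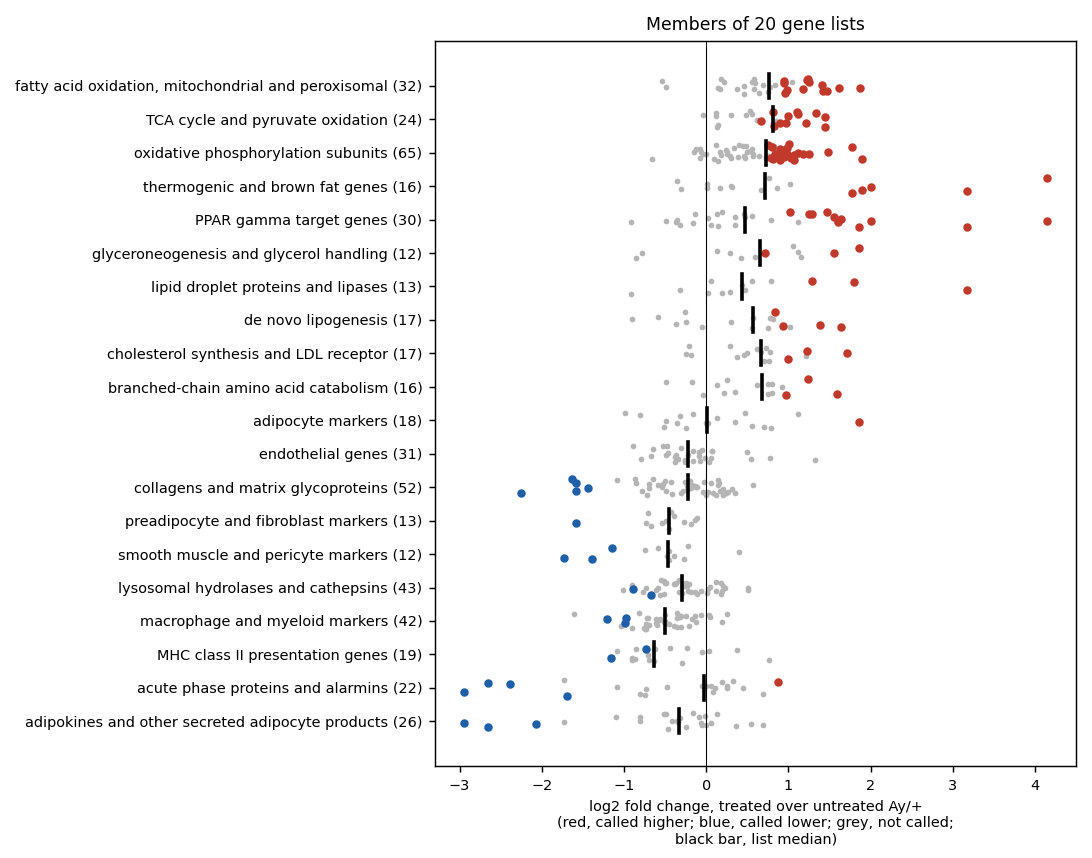
Log2 fold change with pioglitazone (x axis) of each measured member of 20 gene lists, with the number measured in parentheses; red and blue points were called higher and lower, grey points were not called, and black bars are list medians. The oxidation lists hold red points and medians of 0.73 to 0.81, and the inflammatory and matrix lists hold blue points.

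Of 30 measured genes known as PPAR gamma targets, 11 were called higher and none lower (median 0.47), where 2.61% of all 8251 genes were called higher. The number was 11 without both doubted arrays, 9 without treated replicate 3 and 7 with scan day as a fixed block. Aqp7, the fat cell channel through which glycerol leaves, was at 272, 313, 497 and 351 untreated and 1597, 1283 and 1139 treated (log2 fold change 1.86 ± 0.27 (SE), adjusted p = 4.08e-05). All 3 treated arrays were far above the highest untreated one. Others were Slc27a1, a fatty acid transporter (1.60), Pdk4, which restrains pyruvate oxidation (1.56), Me1, the malic enzyme that supplies NADPH (1.64), and Dgat1, which makes triglyceride (1.29). A dimmer Dgat1 probe set was not called (-0.13), and the calls of Dgat1 and Pdk4 were lost without treated replicate 3 (0.0673 and 0.0932). Several classical targets were not called. Fabp4, the main fatty acid carrier of fat cells, was at 198, 699, 481 and 646 untreated and 343, 329.7 and 604 treated (adjusted p = 0.916). Lpl, lipoprotein lipase, was at 5237, 7499.6, 5161 and 6053 and 5279, 5390.1 and 3506 (0.667), and Cd36, a fatty acid translocase, at 724, 432, 551 and 597 and 679, 825 and 699 (0.5). Both groups overlapped in each of these genes. Pck1, the key enzyme of glyceroneogenesis, was at 782, 849.6, 952 and 558 and 688, 874 and 1023 (0.88), also overlapping. Gpd1, which makes glycerol phosphate, was at 2662, 4126, 5875 and 4242 untreated and 13128, 16582 and 3182 treated (log2 fold change 1.12 ± 0.44 (SE), adjusted p = 0.193). Treated replicate 3 alone fell within the untreated range, and without it the adjusted p was 0.0162. A dimmer probe set of Gpd1 was called (1.56, adjusted p = 0.000351).

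Pparg itself did not pass the test: it was at 606, 387, 455 and 323 untreated and 368, 413 and 524 treated, with a log2 fold change of 0.00 ± 0.24 (SE). Of 35 measured adipogenic factors and cofactors only Srebf1, a regulator of lipid synthesis, was called (0.94, adjusted p = 0.0163). That is 2.86% of the list, near the 2.61% of all 8251 genes called higher. Adipoq, which encodes adiponectin, was at 9781, 21784, 15620.2 and 21460.1 and 14022, 16028 and 7109, and its log2 fold change was -0.48 (adjusted p = 0.544). Retn, resistin, was at 6106, 8300.5, 9359 and 7199 and 6866, 7083 and 5445 (0.778). Neither separated the groups. Lep, leptin, was at 4094, 4879, 4317 and 4637 untreated and 3627, 3744 and 1200.4 treated by its brighter probe set (log2 fold change -0.81 ± 0.31 (SE), adjusted p = 0.172), while the other Lep probe set was called (-1.56, adjusted p = 0.00214). The probe sets thus disagreed on the call, and treated replicate 3 was the lowest on the first. Slc2a4, the insulin-responsive glucose transporter, was at 690.0, 343, 466 and 266 and 729, 678 and 668 (0.70, adjusted p = 0.207). Untreated replicate 1 alone reached the treated range. Over 18 adipocyte markers measured the median was 0.01 and Aqp7 the only call.

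Lipid synthesis and droplet genes moved in part. Of all 8251 genes 2.61% were called higher and 1.13% lower. Of 17 measured genes of de novo lipogenesis 4 were called higher and none lower (median 0.57), with Me1, Slc25a1, the citrate carrier (1.39), Srebf1 and Elovl5 (0.84), of which Elovl5 was not called without treated replicate 3 (0.1) nor Slc25a1 without untreated replicate 1 (0.0572). Fasn, fatty acid synthase, had treated arrays above the untreated ones, 6167, 6871 and 4858 against 3471, 4454, 4669.7 and 3481, without passing the test (adjusted p = 0.22). Scd1 and Elovl6, a desaturase and an elongase, were not called (-0.37 and -0.59). Of 13 lipid droplet genes 3 were called higher: Cidea, Dgat1 and Abhd5, the coactivator of adipose triglyceride lipase, at 653, 375, 525 and 347 untreated and 1600.1, 1812 and 1561 treated (log2 fold change 1.80 ± 0.27 (SE), adjusted p = 5.38e-05). Cidec, which enlarges droplets, was at 4330.4, 5196, 4261 and 6074 and 8595, 10602 and 6761 (adjusted p = 0.299). In cholesterol synthesis 3 of 17 were called higher, with Lss at 1.72, Hmgcs1 at 1.23 and Fdft1 at 0.99 (not called without treated replicate 3, 0.0598). In branched-chain amino acid breakdown it was 3 of 16, with Bckdhb, a subunit of the committed dehydrogenase, at 269, 151, 263 and 142 untreated and 679, 497 and 796 treated (1.60, adjusted p = 0.00418).

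Acute-phase proteins gave the largest falls. Saa3, the serum amyloid A made by fat cells and macrophages, was at 1644, 1868, 1923 and 3231 untreated and 180.2, 485 and 178 treated (log2 fold change -2.94 ± 0.41 (SE), adjusted p = 1.85e-05), a 7.69-fold difference of signal plus 23. Serpina3n, an acute-phase protease inhibitor, was at 3406, 5234, 5128 and 5159 and 760.5, 915 and 537 (log2 fold change -2.65 ± 0.22 (SE), adjusted p = 4.18e-10). Lbp, which presents bacterial lipopolysaccharide to its receptor complex, was at 2733, 2382, 2243 and 2494 and 493, 424 and 439 (log2 fold change -2.39 ± 0.19 (SE), adjusted p = 2.16e-10). It had the smallest p of all probe sets, and in all 3 genes every treated array was far below every untreated one. S100a8, an alarmin of myeloid cells, was lower too (log2 fold change -1.69). Of 22 measured acute-phase genes and alarmins these 4 were called lower and 1, S100a1, higher. Of all 8251 genes 1.13% were called lower and 2.61% higher. The list median was -0.03 with all arrays, -0.52 without treated replicate 3 and -0.59 without both doubted arrays, while the same counts were called. Hp, haptoglobin, was not called (-1.73), and the fibrinogen genes Fga, Fgb and Fgg had values of 0.08, 0.20 and 0.11. Wfdc21, a small secreted whey acidic protein domain gene, was at 3598, 2093, 2323 and 2669.7 untreated and 529, 508 and 389 treated (-2.42, adjusted p = 1.17e-05). Agt, angiotensinogen, was at 584, 583, 795 and 766 and 165, 147 and 120.2 (log2 fold change -2.07 ± 0.48 (SE), adjusted p = 0.0109), and its call was lost without treated replicate 3 (adjusted p = 0.0659). Serping1, the inhibitor of complement C1, was the only call among 20 complement genes (4479, 4775, 4802 and 5188 untreated, 1697, 2082 and 1566 treated, log2 fold change -1.43, adjusted p = 5.32e-06).

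Emp1, an epithelial membrane protein, was at 3476, 1272, 1517 and 1335 and 352, 373 and 301 (log2 fold change -2.27 ± 0.25 (SE), adjusted p = 3.7e-07). Nid2, a basement membrane linker, was at 505, 156, 153 and 139 and 36.9, 21.2 and 17.8 (log2 fold change -2.26 ± 0.28 (SE), adjusted p = 2.52e-06). In both, untreated replicate 1 was far above the other untreated arrays, and without both doubted arrays the log2 fold changes were -1.85 and -1.74. Nrep, a neuronal regeneration-related protein, and Eepd1, an endonuclease domain protein, had log2 fold changes of -1.85 and -1.86. Adam17, the sheddase that releases tumour necrosis factor, was at 67.8, 259.5, 228 and 246 untreated and 42.7, 27.9 and 32.2 treated (-1.84, adjusted p = 0.0292), and was not called without treated replicate 3 (0.102). Of 52 measured collagens and matrix glycoproteins 5 were called lower and none higher (median -0.22): Nid2, Dpt (-1.58), the basement membrane collagens Col4a1 (-1.58) and Col18a1 (-1.44), and Col5a2 (-1.63). Over all 8251 genes 1.13% were called lower. Without untreated replicate 1 the list had 8 lower calls, while the lower calls over all probe sets rose from 113 to 364. It had 6 without both doubted arrays, 6 with scan day as a fixed block and 5 without treated replicate 3. Col4a1 was at 6021, 4816, 4217 and 4837 untreated and 1717, 1809 and 1399 treated. The fibrillar collagens Col1a1 and Col3a1 were not called (-0.54 and -0.49).

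**Figure D4:**
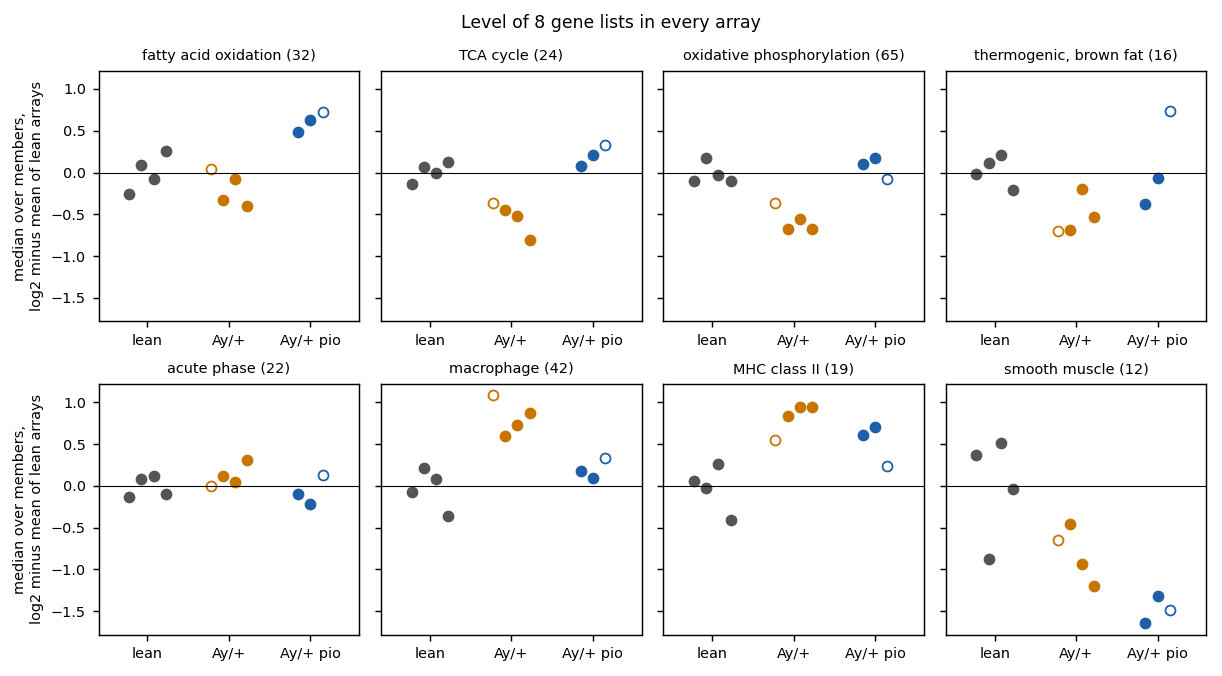
Median over the members of 8 gene lists of log2(scaled signal + 23) minus the mean of the 4 lean arrays (y axis), for each lean, untreated Ay/+ and treated Ay/+ array; open points mark untreated replicate 1 and treated replicate 3. In the TCA cycle list the treated arrays lie at 0.07 to 0.33 and the untreated at -0.81 to -0.36; in the macrophage list the treated lie at 0.09 to 0.34 and the untreated at 0.59 to 1.08.

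Few macrophage and inflammatory genes passed the test. Of 42 measured macrophage and myeloid markers 3 were called lower (Cd53 -1.20, Cd52 -0.99, Cd14 -0.97) and none higher, and 38 had a log2 fold change below 0 (median -0.50). Over all 8251 genes 1.13% were called lower and the median was 0.04. Without both doubted arrays none of the 42 markers was called. Their median was then -0.38, beside -0.12 over all probe sets. Their summed signal ran from 26738 to 34804 in untreated, 16648 to 21335 in treated and 9241 to 17209 in lean arrays. Cd68, a lysosomal marker of macrophages, was at 1017, 927, 924 and 894 and 688, 616 and 523 (adjusted p = 0.327). Its arrays did not overlap although it missed the threshold. Mmp12, macrophage elastase, was at 2258, 265, 400.3 and 231 untreated and 309, 123 and 76.0 treated (0.0815), with untreated replicate 1 far above the rest. Among 39 cytokines and chemokines, Ccl2, which draws monocytes into tissue, was at 692, 547, 449.5 and 1161 and 267, 217 and 138 (log2 fold change -1.62 ± 0.32 (SE), adjusted p = 0.00196). The related Ccl7 was lower as well (-1.32), and Cxcl5, a dim neutrophil chemokine, was called higher (1.00) but not without treated replicate 3 (adjusted p = 0.133). Of 19 MHC class II genes, H2-DMa (-0.74) and the co-stimulatory Cd83 (-1.16) were called lower, the first not without treated replicate 3 (0.262) and the second not without untreated replicate 1 (0.0641). A dimmer Cd83 probe set was not called (0.18). H2-Eb1 was at 4218, 5443, 6143 and 5951 untreated and 2777, 2762 and 2112 treated (-1.08, adjusted p = 0.0884). The list median was -0.64, and the groups did not overlap in H2-Eb1.

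Markers of other cells the sample could hold were read alongside. Over all 8251 genes 2.61% were called higher and 1.13% lower, and the median log2 fold change was 0.04. Of 12 smooth muscle and pericyte markers 3 were called lower (Acta2 -1.73, Mylk -1.39, Rgs5 -1.14) and none higher. Their summed signal was 6764 to 12192 in untreated, 4358 to 5512 in treated and 9505 to 26696 in lean arrays. Acta2, smooth muscle actin, was at 2148, 2314, 1562 and 1528 and 467, 634 and 540.5, and its call and that of Mylk were lost without treated replicate 3 (adjusted p = 0.0516 and 0.102). All 13 preadipocyte and fibroblast markers were below 0 (median -0.45), with Dpt the only call, and their summed signal was 6265 to 8563 untreated and 4245 to 4305 treated. None of 31 endothelial, 21 T and NK cell, 15 B cell, 10 mesothelial or 18 ovary and uterus markers was called. Of 15 neutrophil markers S100a8 (-1.69) and Camp, an antimicrobial peptide (-1.15), were called lower, Camp not without treated replicate 3 (adjusted p = 0.22). Their summed signal was 1419 to 2615 in untreated and 1277 to 1433 in treated arrays, and untreated replicate 1 was the lowest untreated one, the others starting at 2476. Of 23 skeletal muscle markers Pvalb (-1.35) and of 14 pancreas markers Cela1 (-0.86) were called lower, neither of them without treated replicate 3 (0.145 and 0.302). The part these cell markers play in the matrix and inflammatory results was not tested.

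Treated Ay/+ females were next compared with lean females, to see which levels still differed from those of lean fat. Of 12422 probe sets 1754 (14.1%) were called, 735 higher and 1019 lower in treated Ay/+. The Gapdh 3′ to 5′ ratio separated these groups, at 1.31 to 2.51 in lean and 0.768 to 0.836 in treated arrays, and lean replicate 4 had an Actb ratio of 4.18. The part of RNA quality in these calls was not tested. With scan day as a fixed block 109 were called, and the count was 1020 without lean replicate 1, 1150 without treated replicate 1 and 983 without treated replicate 2. Of the 264 probe sets that were higher with the drug, 160 were not called against lean females, 101 were above them and 3 below. Of the 113 lower ones 65 were not called, 47 were below lean and 1 above. Serpina3n was at 738 ± 189.8 in treated Ay/+ (n = 3) and 645 ± 144 in lean females (n = 4), a log2 difference of 0.18 (adjusted p = 0.64). Aqp7 was 1339 ± 234 against 161 ± 9.37, above lean (2.88, 1.75e-08), and Cpt2 also (1.17, 0.000872). Lbp and Nid2 were below lean (-0.81 and -2.60). Some large gaps to lean fat were not among the drug's calls. Elovl6 was at 44.2, 53.0 and 160.4 in treated and 2698 ± 433 in lean fat (-4.78, adjusted p = 6.92e-09), and Ubd, a ubiquitin-like modifier, was at 2827, 2814 and 862 against 65.1 ± 27.5 (4.51). These comparisons with lean fat share the treated arrays with the drug comparison and are given side by side only.

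The same drug was then read in ob/ob females, which lack leptin, and in diet-induced obese males. Pioglitazone changed 91 probe sets upward (0.733%) and 41 downward (0.33%) in ob/ob females, and 94 upward (0.757%) and 82 downward (0.66%) in the males. These comparisons share no arrays with the Ay/+ one. In ob/ob females no scan day held both treated and untreated arrays, so drug and scan day cannot be told apart there. Treated male replicate 1 had a Gapdh 3′ to 5′ ratio of 46.9, against 0.907 to 1.17 on the other male arrays compared, and without it 90 were called upward and 65 downward. Untreated ob/ob replicate 4 had the lowest correlation with its group, 0.878, and without it 55 were called upward and 40 downward. Of the 264 higher in Ay/+, 246 (93.2%) had a positive log2 fold change in ob/ob females and 227 (86.0%) in the males, where 42.4% and 40.0% of all probe sets did. Those also called higher were 62 in ob/ob females, which is 23.5% of the Ay/+ calls and 68.1% of the ob/ob calls, and 68 in the males, which is 25.8% and 72.3%. Without those 2 arrays they were 39 and 66. Of the 113 lower, 100 (88.5%) were negative in ob/ob females and 104 (92.0%) in the males, where 57.6% and 60.0% of all probe sets were. Those also called lower were 22 in ob/ob females, which is 19.5% of the Ay/+ calls and 53.7% of the ob/ob calls. In the males they were 28, which is 24.8% and 34.1%. Ucp1 rose in all 3 settings, by 4.15 in Ay/+, 5.09 in ob/ob and 2.17 in the males, as did Cidea (3.17, 3.82 and 2.36). Saa3 fell in each (-2.94, -2.43 and -3.37).

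A test of the difference itself called 3 of 12422 probe sets (0.0242%) between Ay/+ and ob/ob females, with 627 at an unadjusted p under 0.05. Its ob/ob part holds scan day along with the drug. Emp1 was at 2385, 1856, 1847 and 3502 in untreated and 1909.6, 2020.3 and 1741 in treated ob/ob females, so a log2 fold change of -2.27 in Ay/+ stood against -0.29 (difference -1.98 ± 0.35 (SE), adjusted p = 0.0161). Nrep was at 232, 212, 292 and 272 untreated and 325, 265 and 202 treated in ob/ob females, where the groups overlapped (difference -1.89 ± 0.33, adjusted p = 0.0161). Fst, follistatin, an activin-binding protein, was at 63.0, 79.2, 37.5 and 32.7 and 86.3, 109 and 70.4 in Ay/+ but at 117, 94.3, 107 and 163 and 33.6, 3.41 and 50.1 in ob/ob females (difference 2.14 ± 0.41, adjusted p = 0.0344). Treated ob/ob arrays were all below untreated ones in Fst, while the Ay/+ groups overlapped. The treated ob/ob values of Fst lay near the pseudocount of 23, so the size of its difference depends on the floor. The count was 9 without untreated Ay/+ replicate 1, 1 without treated Ay/+ replicate 1, treated Ay/+ replicate 3 or untreated ob/ob replicate 3, and 0 without treated Ay/+ replicate 2 or treated ob/ob replicate 1 or 2. Between Ay/+ females and diet-induced obese males limma called 0 probe sets (0.0%), with 966 at an unadjusted p under 0.05 and 28 called with array weights, and there sex differs along with the model. Emp1 and Mapk6 each had an adjusted p of 0.105. Missing the threshold does not show that the effects were alike: Gadd45g had log2 fold changes of 2.24 in Ay/+, 0.96 in ob/ob and 0.59 in the males, with a difference of 1.65 ± 0.48 from the males (adjusted p = 0.321).

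**Figure D5:**
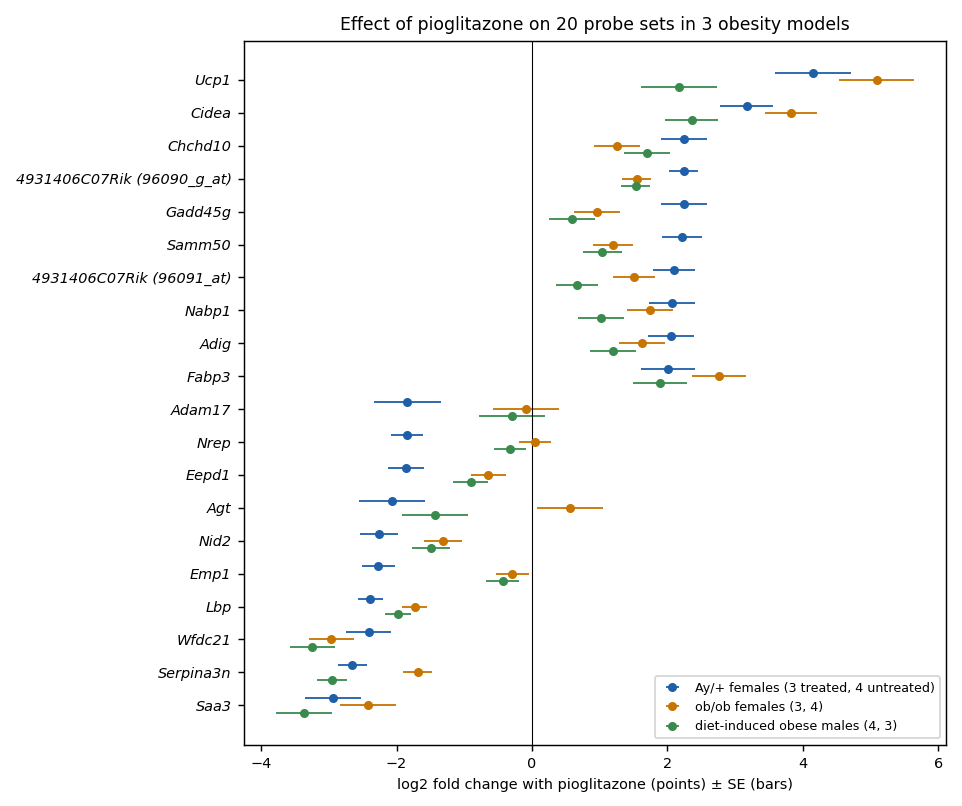
Log2 fold change with pioglitazone (points) and its SE (bars) of the 10 highest and 10 lowest named probe sets of the Ay/+ comparison in the Ay/+ females, the males made obese by diet and the ob/ob females; the 20 were chosen on the Ay/+ values. Emp1 and Nrep lie far below 0 in Ay/+ and near 0 in the other models, and Saa3, Serpina3n, Lbp and Wfdc21 lie below -1.5 in all.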

How the data were processed

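RNA of perigonadal fat was measured on 35 Affymetrix MG-U74Av2 arrays in 10 groups. The deposited values are probe set intensity signals, made by the authors with MAS5 per the submitters' processing notes. Their version and scaling target are not given in the sources used here. The array settings files give other values, used as deposited only for scan day (13 in all), chip lot and batch. Arrays whose settings give a scanner type were taken as the later batch, and the others as the earlier. The depth of arrays is set by their number.

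Signals were multiplied per array to reach a mean of 250 after trimming 2% at each end, since deposited trimmed means ran from 250 to 998 among the 7 Ay/+ arrays. A pseudocount of 23, the 25th percentile, was added and log2 taken. The test covered 12422 of 12488 probe sets, the other 66 being controls. The platform annotation gave 1 symbol to 10833, several to 396 and none to 1193. In limma 3.58.1 (R 4.3.3) 10 group means were fitted on all 35 arrays, with eBayes and a variance trend. Adjusted p is Benjamini-Hochberg within a comparison, called under 0.05. The fit was tested on simulated data. Python 3.11.15, pandas 2.3.3 and matplotlib 3.10.9 made tables and figures.

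The members and 48 gene lists (1119 measured places) were chosen with earlier results of these data known. Lists count 1 probe set per gene, the brightest. Named genes were the 10 highest and 10 lowest calls with 1 symbol, non-overlapping groups and a mean of at least 46 in the higher group, up to 4 called and 3 uncalled members of a list, and 30 fixed genes, of which Cfd, Plin1 and Gapdh were not measured under those symbols. Other genes named were chosen after their values were seen. Some probe sets may bind related transcripts.

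Replicate numbers 1 to 3 are shared by the groups, and the correlations of same-numbered deviations were 0.05, -0.03 and 0.04, so the numbers were not taken to pair samples. Alternatives were quantile normalization, other pseudocount and filters, array weights, only the compared groups, batch, scan day or chip lot as a block, the replicate block, and leaving out arrays.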

Additional observations from a re-analysis of the deposited data

Results flagged for a closer look

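In 9 of 117 named probe sets 1 of the 4 untreated Ay/+ arrays stood apart from the other 3 by Dixon's test, which chance gives in about 1 in 20 groups. It was replicate 1, the single array of the later batch, in all 9. Replicate 1 was low in Actb (12.3), Adam17 (67.8), Camp (119.9), Cavin1 (2153), Serpina3n (3406) and Slc25a1 (977.9). It was high in Cxcl5 (18.75), Hmgcs1 (1188) and Nid2 (504.5). Whether the batch plays a part was not tested, and it cannot be told apart from that sample.

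A test of the difference in effect of pioglitazone between Ay/+ and ob/ob females called 3 probe sets. Its ob/ob part holds scan day along with the drug. The count was 0 without treated Ay/+ replicate 2 or treated ob/ob replicate 1 or 2. The difference of log2 fold changes, Ay/+ minus ob/ob, was -1.894 for Nrep (adjusted p = 0.0161), -1.979 for Emp1 (adjusted p = 0.0161) and 2.143 for Fst (adjusted p = 0.0344).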

How the results depend on the processing

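No result reversed. All 89 called named probe sets kept their direction under 21 alternatives. Where treated and untreated arrays did not overlap, leaving out arrays cannot reverse the direction, so its keeping there is no separate support. The highest and lowest named probe sets were chosen for such non-overlap. Of the 89, 49 were called whichever 1 Ay/+ array was left out, and 36 under every setting. Calls were lost for 44 with only the compared groups, 37 with scan day as a fixed block, 32 without treated replicate 3 and 15 without both doubted arrays. The 377 calls between treated and untreated Ay/+ became 90 with only the compared groups, 641 with array weights, 1221 with earlier arrays only, 717 without both doubted arrays and 1087 with earlier arrays without treated replicate 3, a setting added after seeing the data. Leaving out 1 array gave 223 to 880. Scan day as a fixed block and chip lot as a random block were also not among the planned settings. Treated replicate 1 was the only array of its scan day, so the fixed block leaves it no weight in the comparison. The share of higher calls, 70.0%, was 52.4% without both doubted arrays and 58.4% with earlier arrays only. The 3 calls of the difference from ob/ob females became 1, 55, 46, 6 and 27 in the same order, and 0 to 9 with 1 array left out. The 0 calls of the difference from diet-induced obese males became 28 with array weights, 2 without both doubted arrays, 3 with earlier arrays without treated replicate 3, and 0 to 6 with 1 array left out. The 1754 calls against lean females became 1097 with only the compared groups, 900 with scan day as a random block, 109 with it as a fixed block, 2676 with earlier arrays without treated replicate 3, and 983 to 1894 with 1 array left out. The causes were not tested. With the replicate block the counts were 312, 2, 0 and 1671. The block is only a shared number here. Later arrays alone could not be run, since no treated Ay/+ array is among them, and the difference from ob/ob females could not be fitted with scan day as a fixed block. Dim signals near the pseudocount limit the size of folds.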

Other observations

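Of 38 measured genes of antioxidant defence, Cat, the peroxisomal catalase (0.97), and Sod2, the mitochondrial superoxide dismutase (0.64), were called higher, and Gstm3 (-1.34) and Mt2, a metallothionein (-1.14), lower. None of the 4 was called without treated replicate 3 (adjusted p from 0.081 for Gstm3 to 0.199 for Mt2). Catalase was at 1015, 515, 449.9 and 387 in untreated and 1161, 1109 and 1028 in treated arrays. Of 17 genes of steroid and hormone handling, Hsd17b12 (1.85) and Npr1, a natriuretic peptide receptor (1.20), were called higher, and Hsd11b1, which activates glucocorticoid in fat (-1.23), and Agt lower. Without treated replicate 3 only Hsd17b12 of these was called (adjusted p = 0.339 for Npr1 and 0.102 for Hsd11b1). Npr1 was at 0.779, 2.29, 6.44 and 3.66 untreated, all below the pseudocount, and 10.2, 30.5 and 100.1 treated, so its fold rests on values near the floor. Hsd11b1 was at 391, 375, 411 and 411 untreated and 178, 193 and 108 treated. Of 26 genes of insulin signalling Akt2 (0.74) and Gys1, muscle-type glycogen synthase (0.87), were called higher and none lower. Gys1 was not called without treated replicate 3 (adjusted p = 0.103), and neither was called with scan day as a fixed block (0.137 and 0.154). Of 33 interferon-related genes H2-Q10 was called higher (1.39), and H2-M3 (-1.06) and Irf8 (-0.95) lower. These were 3.03% and 6.06% of that list, and the antioxidant calls were 5.26% in each direction. Of all 8251 genes 2.61% were called higher and 1.13% lower.

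The probe set 92805_s_at, to which the annotation gives no single gene symbol, was outside the rule for named genes and was chosen after its values were seen. It was at 802, 523, 274 and 215 untreated and 3281, 4172 and 2491 treated (log2 fold change 2.95 ± 0.33 (SE), adjusted p = 5.4e-07).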
